A study of Mus musculus with 137 samples.

Results

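Bone marrow-derived macrophages of mice homozygous for the F121A change in Beclin1 (genotype Beclin1F121A/F121A) were compared between 6 h of stimulation and rest (0 h). The comparison used all 12 F121A libraries of these times, 6 per time, out of 137 libraries in the series, and took in all genes of the knock-in count table rather than a chosen set. Marrow of mice aged 7 weeks was cultured over 7 days in M-CSF (20 ng/ml), the growth factor that drives marrow cells to macrophages, and the adherent cells were re-plated. They were then left unstimulated or given LPS and IFN-gamma, each at 100 ng/ml. Macrophages of littermate control mice, labelled WT and treated alike (6 libraries per time), were used where the size of the response was compared between genotypes. The F121A change is carried in every cell of the mouse, and the labels name no Cre driver or deletion for this cohort. They do not say whether the 6 libraries of a group came from separate mice or cultures, so that p-values measure the spread between these libraries, which may be technical.

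LPS, a component of the outer membrane of Gram-negative bacteria, is sensed by TLR4 and signals through MYD88 to NF-kB and MAP kinases, and through TICAM1 to IRF3 and type I interferon. IFN-gamma acts through its own receptor and JAK kinases. Given together they drive macrophages to the state often called M1, with cytokine and nitric oxide production, antigen presentation and a shift toward glycolysis. Beclin1 is a subunit of the class III PI3-kinase complexes that start autophagosomes and act in endosomal trafficking. It is held in check by BCL2 family proteins, and the F121A change lies in the segment that BCL2 binds and is known to weaken that binding and raise autophagy.

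RNA was measured by Smart-Seq2 with paired reads, which copies RNA from the poly(A) tail and keeps no strand. Counts in genes per library ran from 4838706 to 8855041 at rest (median 8193464.5) and from 6501642 to 8856029 at 6 h (median 7559208.5), with 17268 to 19054 and 15378 to 16117 genes detected. Levels are given as CPM, which are counts scaled by library total and TMM factor, and where 3 values follow each other they are the lowest, the median and the highest of 6 libraries. Changes are log2 fold changes with their standard error, from edgeR's quasi-likelihood test with Benjamini-Hochberg adjustment over 11500 genes tested of 34573, with an adjusted p under 0.05 as the threshold of a call. In replicate 5 at rest, 8 satellite-like transcripts took 27.8% of the counts, against 0.0965 to 0.466% in the other 5 resting libraries and 0.128 to 0.539% at 6 h. Without that library 8839 genes were called in place of 8568. All 12 libraries had Xist at 64.5 to 138 CPM and Ddx3y, on the Y chromosome, at no more than 0.527 CPM.

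**Figure D1:**
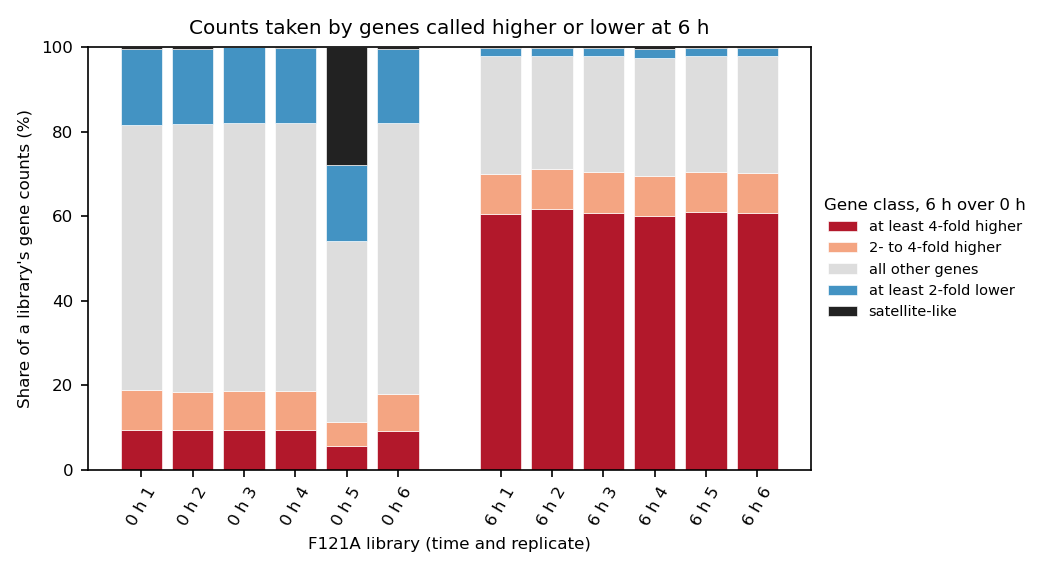
Share of each F121A library's counts in genes (y axis, percent) taken by genes called at least 4-fold higher at 6 h (red), 2- to 4-fold higher (orange), at least 2-fold lower (blue), the satellite-like list (black) and all others (grey); each bar is 1 library. The red share went from 5.72 to 9.48% at rest to 59.9 to 61.7% at 6 h, and the black share stands out in replicate 5 at rest. Related transcripts outside the satellite-like list count in the blue share.

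At 6 h of LPS and IFN-gamma, most of the genes tested in F121A macrophages differed from rest. Of 11500 genes tested, 8568 (74.5%) were called, 4209 (36.6%) higher and 4359 (37.9%) lower, and 6313 (54.9%) had 6 h levels that did not overlap the resting ones. At least 2-fold changes were called in 2750 genes (23.9%) on the higher side and 2807 (24.4%) on the lower. The largest changes were increases: 236 genes were at least 64-fold higher and 32 at least 64-fold lower. The 1510 genes at least 4-fold higher took 5.72 to 9.48% of a library's counts at rest and 59.9 to 61.7% at 6 h, as the plot of count shares shows. With the 8 listed satellite-like transcripts left out at both times, the genes at least 2-fold lower took 17.5 to 18.2% of the counts at rest and 1.85 to 1.97% at 6 h. Related transcripts outside that list stayed in. Among them, Gm10716 took at most 3.37% of a resting library (median 0.0357%) and AC131780.3 at most 2.31% (median 0.0226%).

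The direction of small changes depended on the scaling. With TMM the median gene had a log2 fold change of -0.07, with DESeq2 size factors -0.16, and with library totals alone -1.37, a shift of -1.30 for the median. Under library totals 1759 genes were called higher and 8482 lower, so that 17.2% of the calls were increases against 49.1% with TMM. Changes below are relative to the TMM scale. In bulk RNA, fewer cells of a type and less RNA per cell cannot be told apart.

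**Figure D2:**
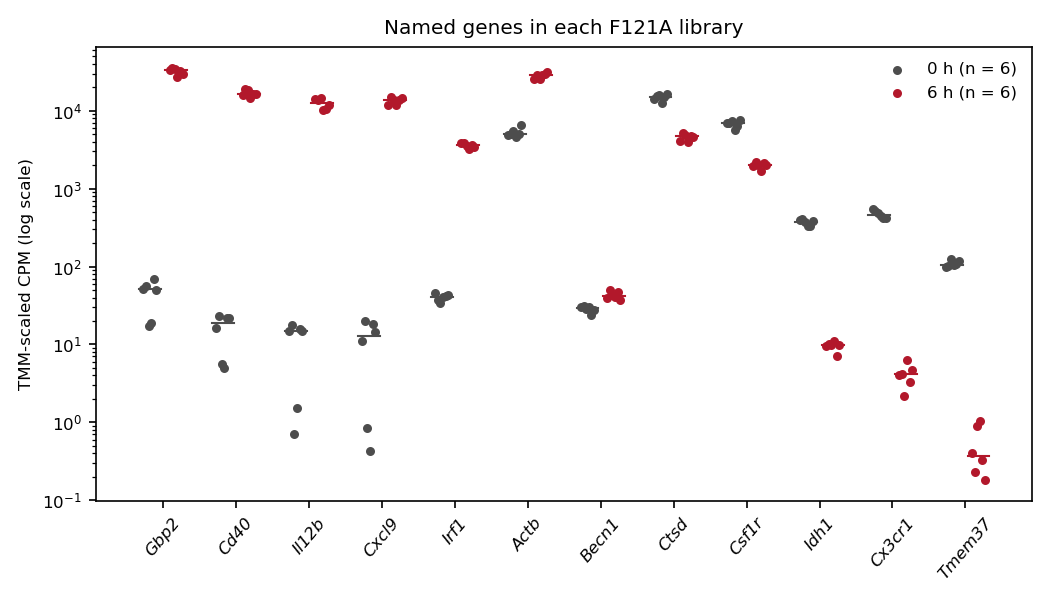
TMM-scaled CPM on a log scale (y axis) of 12 named genes in each F121A library at rest (grey) and at 6 h (red); points are libraries and short lines medians of 6. Apart from Becn1, Actb, Ctsd and Csf1r the groups lie more than 10-fold apart, and 2 resting libraries lie well under the other 4 in Cd40, Il12b and Cxcl9.

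The largest gains in level are given first. Gbp2, a guanylate-binding protein that coats intracellular bacteria, went from 17.1, 50.8 and 68.7 CPM at rest to 26890, 33110 and 35730 CPM at 6 h, and was the transcript with the largest gain in level. Mmp13, a collagenase, went from 10.8, 30.9 and 51.8 to 24840, 27690 and 30590 CPM. Il1rn, the natural antagonist of the IL-1 receptor, went from 8.696, 30.8 and 38.8 to 23660, 26280 and 30170 CPM. Irg1 (Acod1 in RefSeq), the enzyme that makes itaconate from aconitate, went from 16.6, 43.1 and 68.2 to 21010, 26440 and 29000 CPM. The log2 fold changes of these 4 genes were 9.53 ± 0.29, 9.89 ± 0.31, 10.02 ± 0.31 and 9.27 ± 0.25, and in none did the groups overlap. Ccl5, a chemokine for T cells and monocytes (9.52 ± 0.30), and the receptor Cd40 (10.09 ± 0.33) were also among the 8 largest gains. So were 2 genes already abundant at rest, Actb, the cytoskeletal actin (2.44 ± 0.11), and B2m, the light chain of MHC class I (2.68 ± 0.12). Together these 8 genes took 1.03 to 1.82% of the counts at rest and 13.2 to 13.9% at 6 h. The 164 genes called among those named here with a log2 fold change, Gm10800 and Asl set aside, each had an adjusted p of 9.9e-05 or less in edgeR's quasi-likelihood test.

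By fold change, the 12 highest genes with a mean of at least 3 on the log2 CPM scale were led by Tnc, an extracellular matrix glycoprotein (0, 0.162 and 0.527 CPM at rest, 249.5, 316 and 382 CPM at 6 h, 10.73 ± 0.43). Il27, the p28 subunit of IL-27, went from 0.325, 2.92 and 6.502 to 3664, 4056 and 4483 CPM (10.48 ± 0.44). Cxcl9, a ligand of the receptor CXCR3, went from 0.434, 12.7 and 20.3 to 11920, 13840 and 14910 CPM (10.33 ± 0.53). Ptgs2, the inducible cyclooxygenase, went from 0.805, 9.22 and 15.7 to 8718, 9659 and 10710 CPM (10.28 ± 0.50). Nos2, the inducible nitric oxide synthase, went from 0.496, 5.01 and 9.801 to 4231, 5990 and 7085 CPM (10.26 ± 0.47). Il12b, the p40 subunit of IL-12 and IL-23, went from 0.714, 14.8 and 17.6 to 10270, 12700 and 14500 CPM (10.20 ± 0.55). The other members of the 12 were Cnn3, an actin-binding calponin (10.43 ± 0.29), Upp1, uridine phosphorylase (10.42 ± 0.27), and Cd40. Serpina3g, a serine protease inhibitor (10.37 ± 0.32), Bcl2a1d, a survival protein (10.15 ± 0.30), and Ifi205, of the PYHIN family (10.12 ± 0.32), complete the 12. These last 3 have near-identical copies in the genome, among which the authors' counting could split reads. Resting levels of these genes differed more between libraries than their 6 h levels, with a ratio of highest to lowest above 10 at rest for Cxcl9, Ptgs2, Nos2, Il12b, Il27, Cnn3 and Serpina3g, and a lowest value of 0 for Tnc and Upp1. A gene as near 0 at rest as Tnc can enter the test only through other groups, so that a call of higher was likely in advance.

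Of 12 genes tested with no count in any of the 6 resting libraries, 10 were called higher. Such a gene can enter the test only through its counts in other groups. A call of higher was therefore likely in advance, and the count of 10 is not a result about these genes. Among the 10 was Ifnb1, the gene of interferon-beta, named after its values were seen, at 3.29, 3.74 and 5.11 CPM at 6 h. Its mean at 6 h was 99.9-fold the resting floor of 3 counts over the group (0.0389 CPM). Likewise picked after their values were seen, Sytl3, a synaptotagmin-like trafficking protein, had a 6 h mean 137-fold that floor. Serpina3h, another serine protease inhibitor, had a 6 h mean 142-fold that floor.

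**Figure D3:**
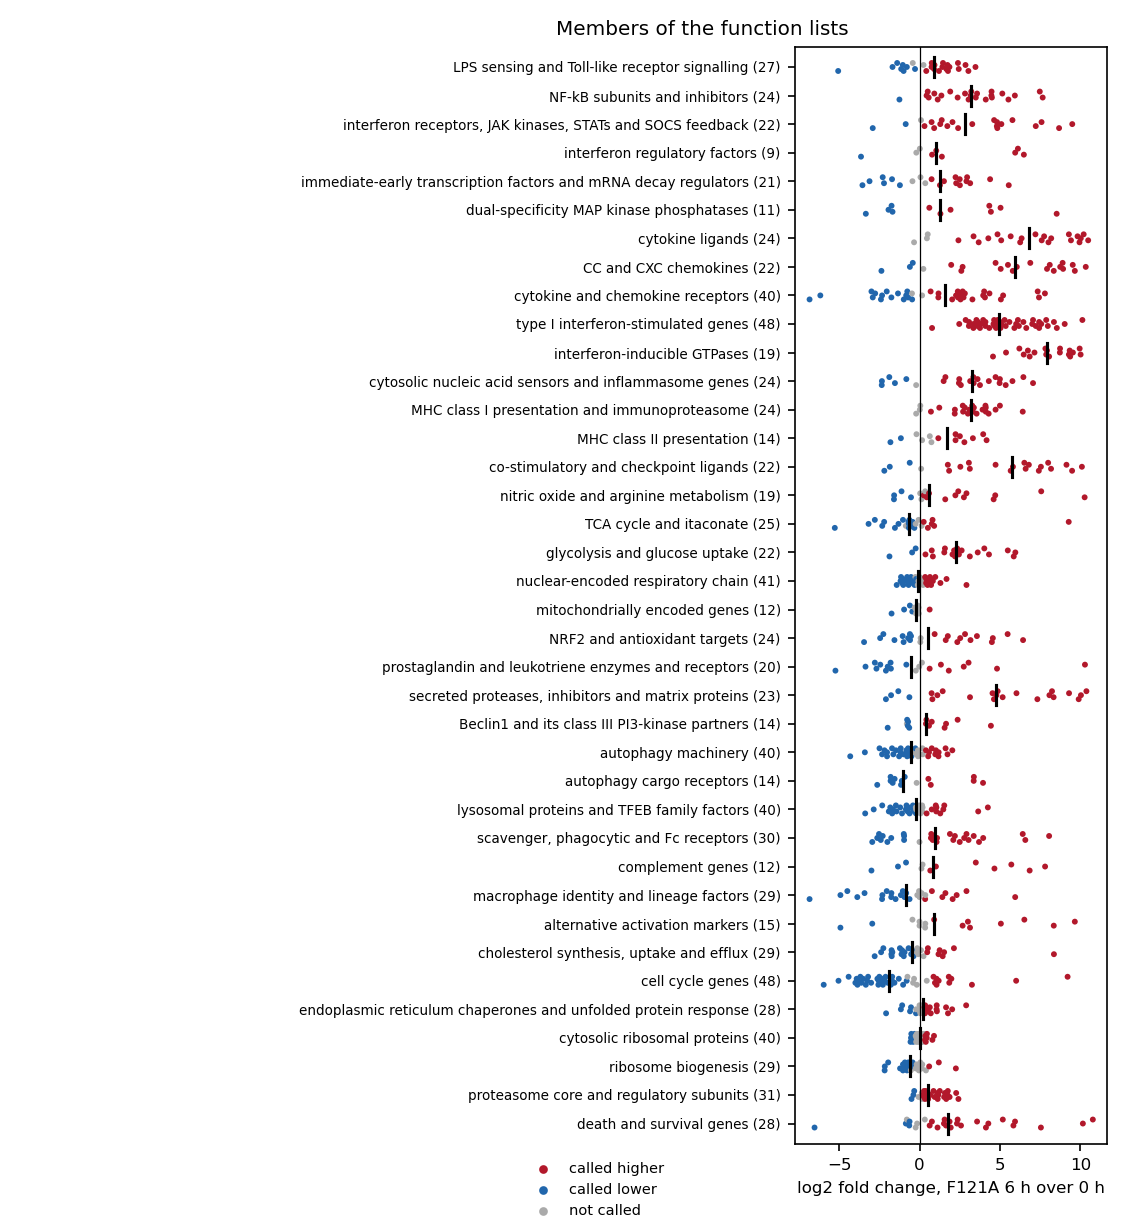
Log2 fold change at 6 h over 0 h (x axis) of the tested members of 38 function lists (rows, with the number tested); each point is 1 gene, red called higher, blue called lower, grey not called, and the black tick is the median of the list. Cytokines, interferon-stimulated genes and interferon-inducible GTPases lie mostly right of 0, while cell cycle genes, autophagy cargo receptors and macrophage identity factors have medians left of it.

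The 38 function lists are described below by how many tested members were called in each direction, to be read against 36.6% of all genes higher and 37.9% lower, and by their median log2 fold change beside the -0.07 of all genes. Of 26 lists with a median above 0, 12 had one below 0 under library totals. These were LPS sensing, interferon regulatory factors, immediate-early factors, dual-specificity phosphatases, nitric oxide and arginine metabolism, NRF2 targets, Beclin1 and its partners, scavenger receptors, complement, alternative activation, ER chaperones and the proteasome.

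Sensing genes were split, and NF-kB genes rose nearly throughout. Of 27 genes of LPS sensing and Toll-like receptor signalling, 17 rose and 8 fell (median 0.89, -0.40 under library totals). Myd88, the shared adaptor, went from 38.7, 44.1 and 47.01 to 385, 489 and 560.2 CPM (3.47 ± 0.11). Ikbke, the inducible IKK-related kinase of the interferon arm, rose by 2.85 ± 0.11. Tlr13, a receptor for bacterial ribosomal RNA, fell from 157, 179 and 194 to 3.27, 5.88 and 6.58 CPM (-5.07 ± 0.16), and Tlr2, the lipoprotein receptor, had a log2 fold change of -1.15 ± 0.10. Downstream, 23 of 24 NF-kB subunits and inhibitors rose and 1 fell (median 3.19). Traf1 rose by 7.65 ± 0.17, and the feedback inhibitors Nfkbie (IkB-epsilon) and Tnip3 (an A20-binding protein) by 5.52 ± 0.12 and 5.92 ± 0.15. The member that fell was Map3k14, the NIK kinase of the non-canonical pathway, at -1.26 ± 0.24.

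Interferon signalling genes rose in 19 of 22 cases, with 2 lower (median 2.83). Stat3, a signal transducer of IL-6 and IL-10, rose by 4.80 ± 0.11, and Usp18, which removes ISG15 and dampens the interferon receptor, by 7.22 ± 0.14. The 2 that fell were Ifngr1, the ligand-binding chain of the IFN-gamma receptor, from 255, 290.3 and 319.5 to 28.4, 40.6 and 42.3 CPM (-2.92 ± 0.10), and Stat6, the IL-4 signal transducer (-0.87 ± 0.10). Of 9 interferon regulatory factors and relatives tested, 6 rose and 1 fell (median 1.03, -0.27 under library totals). Irf1 rose by 6.48 ± 0.13, Irf7 by 6.11 ± 0.15 and Irf8 by 5.94 ± 0.14, the last from 131, 192 and 217 to 10940, 11340 and 12200 CPM, while the repressor Irf2bp2 fell (-3.65 ± 0.20).

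Transcription factors of the immediate-early class and their feedback were split. Of 21 immediate-early and mRNA decay genes, 12 rose and 6 fell (median 1.26, -0.04 under library totals), with Ier3 (5.54 ± 0.15) and Fosl2 (2.49 ± 0.15) higher. Fos, which is induced within minutes of a stimulus, was lower at 6 h than at rest, at 10.3, 13.8 and 15.3 against 104, 119 and 127 CPM (-3.12 ± 0.20), and Myc fell (-3.56 ± 0.42). Of 11 dual-specificity phosphatases, which switch off MAP kinases, 7 rose and 4 fell (median 1.29, -0.04 under library totals). Dusp2 rose by 8.52 ± 0.32, Dusp16 by 5.03 ± 0.13 and Dusp1 by 4.43 ± 0.17, and Dusp6, an ERK phosphatase, had a log2 fold change of -3.35 ± 0.18.

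Most cytokine and chemokine genes rose, many of them from levels near 0. Of 24 cytokine ligands tested of 31 in the table, 21 rose, each at least 2-fold, and 3 were not called (median 6.77). Of the 31, 5 had no count in any resting library. Members at or near 0 at rest can enter the test only through other groups, so that this count and median are partly set in advance. Il6 went from 0.124, 2.25 and 3.17 to 1537, 1755 and 2053 CPM (9.94 ± 0.34), and was named after its values were seen. Il1a, the alarmin form of IL-1, rose by 9.82 ± 0.25 and Tnfsf9, the ligand of 4-1BB, by 5.66 ± 0.14. Of 22 chemokines, 18 rose and 3 fell (median 5.92). Cxcl10, a CXCR3 ligand, went from 10.3, 12.98 and 21.5 to 5175, 6176 and 6474 CPM (8.74 ± 0.18), the neutrophil attractant Cxcl2 from 2.95, 3.64 and 3.93 to 345, 425 and 484 CPM (6.88 ± 0.14), and the eosinophil attractant Ccl24 rose by 8.34 ± 0.17. Cxcl14 fell (-2.38 ± 0.22). Of 40 cytokine and chemokine receptors, 23 rose and 15 fell (median 1.60, 0.29 under library totals). The chemerin-binding receptor Ccrl2 (7.34 ± 0.17) and the formyl peptide receptor Fpr2 (7.42 ± 0.19) were higher, and Cxcr4, the CXCL12 receptor that retains cells in marrow, fell from 12.5, 16.9 and 22.9 to 0, 0.1802 and 0.818 CPM (-6.18 ± 0.34).

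All 48 type I interferon-stimulated genes tested were called higher, 47 of them at least 2-fold (median 4.95), and so were all 19 interferon-inducible GTPases (median 7.92). Slfn5, a Schlafen family restriction factor, went from 19.7, 22.7 and 24.9 to 500.5, 532 and 584 CPM (4.59 ± 0.09). Ifi47, an immunity-related GTPase on both lists, went from 16.7, 22.9 and 23.9 to 4116, 4959 and 5821 CPM (7.87 ± 0.15). Gbp3 rose by 7.92 ± 0.13 and Irgm1, which acts on phagosomes and in autophagy, by 6.20 ± 0.12. Several GTPases of both families have near-identical copies, so that their single values are uncertain. Of 24 cytosolic sensors and inflammasome genes, 18 rose and 5 fell (median 3.24). The RNA sensor Ifih1 (MDA5) rose by 7.05 ± 0.15, and Mavs, the mitochondrial adaptor it signals through, fell (-2.36 ± 0.21).

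Sequences before the starts of these genes were read because the class rose as a whole. RefSeq promoters (GRCm38.p6) were found for 8664 of the 11500 genes tested, and the 250 bases before the start were searched on both strands. The core of the interferon response element, GAAANNGAA, was held by 10 of 11 GTPase promoters (90.9%) and by 19 of 38 interferon-stimulated genes (50%), against 6.61% of tested genes and 7.16% of all 27025 promoters in the table. The match nearest the start of each of the 10, written 5′ to 3′ on the strand of the gene with 10 bases on either side and the match in capitals (on the opposite strand the element reads as its reverse complement), was as follows.
Gbp1 (chr3:142594701-142594729, + strand): tacttctaatTTCACTTTCttctttatca
Gbp2 (chr3:142620595-142620623, + strand): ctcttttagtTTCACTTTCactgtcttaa
Gbp3 (chr3:142559996-142560024, + strand): cagtttcagtTTCTATTTCccagatccct
Gbp5 (chr3:142496760-142496788, + strand): cttgtgtagtTTCAATTTCagtttagaga
Gbp7 (chr3:142530274-142530302, + strand): tgtgtgcagtTTCAGTTTCagttctccat
Igtp (chr11:58199512-58199540, + strand): tctaggaactGAAACTGAAagctgttcgg
Irgm1 (chr11:48871426-48871454, - strand): tcaagaaataGAAACCGAAactgattctc
Irgm2 (chr11:58214903-58214931, + strand): tccaggaactGAAACTGAAagctgttcgg
Tgtp1 (chr11:48992305-48992333, - strand): tccaggaatcGAAACTGAAacctacctga
Tgtp2 (chr11:49064264-49064292, - strand): tccaggaatcGAAACCGAAacctactctg

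All 5 guanylate-binding protein promoters held the element on the opposite strand and all 5 immunity-related GTPases on the strand of the gene, between 24 and 164 bases before the start and within 100 bases in 8 of 10. Ifi47 had no match in this window. Promoters were found for 11 of the 19 GTPases tested. The stretches of Igtp and Irgm2 are nearly the same, as are those of Tgtp1 and Tgtp2, so that the matches are not independent of each other. Over all genes, the element stood in 9.72% of 1996 promoters of genes at least 2-fold higher, in 23.5% of 162 at least 64-fold higher and in 5.34% of 2210 at least 2-fold lower. The gamma-activated site TTCNNNGAA was in 6.81%, 16% and 6.38% of the same promoters and in 6.27% of tested genes. It was also in 6 of 11 GTPase promoters (54.5%) and in 4 of 38 promoters of interferon-stimulated genes (10.5%). The NF-kB site core GGGANTTNC was in 5.06%, 7.41% and 3.39%, against 4.06% of tested genes, and in 8 of 20 promoters of NF-kB subunits and inhibitors (40%). Mean GC content was 52.2% in promoters of the genes at least 64-fold higher and 59.8% over tested genes, and its part in these shares was not tested. These are letter matches and not measured binding sites.

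Among the genes with the highest fold changes or the largest gains, the promoters of Cxcl9 and B2m held both the interferon element and the NF-kB core, and are shown for that reason, again with matches in capitals. The 250 bases before the Cxcl9 start (chr5:92328080-92328329, - strand) held 1 interferon element and 2 NF-kB cores, and those before B2m (chr2:122147437-122147686, + strand) held 1 of each.
Cxcl9: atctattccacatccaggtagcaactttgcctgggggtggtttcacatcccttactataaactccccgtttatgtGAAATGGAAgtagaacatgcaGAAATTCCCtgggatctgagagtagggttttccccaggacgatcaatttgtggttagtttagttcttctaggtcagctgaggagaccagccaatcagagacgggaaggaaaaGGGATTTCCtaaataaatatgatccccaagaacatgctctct
B2m: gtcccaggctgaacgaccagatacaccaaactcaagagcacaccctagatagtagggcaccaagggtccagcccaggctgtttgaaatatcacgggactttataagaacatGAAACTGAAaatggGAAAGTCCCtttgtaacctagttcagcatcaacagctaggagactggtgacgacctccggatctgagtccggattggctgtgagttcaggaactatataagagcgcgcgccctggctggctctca

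None of the 12 promoters of the genes with the lowest fold changes held the interferon element or the gamma-activated site, and 1 of them (Dhrs3) held the NF-kB core. With 6.61% and 6.27% of tested genes holding these 2 motifs, this count is not a result about the 12. Of the 12 highest genes, 9 had a promoter, and 5 of the 9 held none of the motifs searched. Of the 8 largest gains, 5 had a promoter and 2 of the 5 held none.

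Most genes of antigen presentation and T cell contact rose. Of 24 genes of class I presentation and the immunoproteasome, 21 rose and 0 fell (median 3.18). The peptide transporter Tap1 went from 25.6, 29.8 and 34.6 to 2136, 2667 and 2870 CPM (6.41 ± 0.14), the class I transactivator Nlrc5 rose by 4.99 ± 0.10, and the proteasome activator Psme2 by 4.72 ± 0.12. Of 14 class II genes, 8 rose and 2 fell (median 1.69). H2-Ab1 went from 51.7, 81.8 and 91.04 to 1287, 1391 and 1520 CPM (4.16 ± 0.15), and Ciita, the class II master regulator, rose by 3.95 ± 0.16, while Rfxank, a subunit of the RFX factor, fell (-1.82 ± 0.23). Of 22 co-stimulatory and checkpoint ligands, 18 rose and 3 fell (median 5.73). Slamf7 rose by 7.41 ± 0.13, Cd274 (PD-L1) by 7.99 ± 0.18 and Cd200 by 8.17 ± 0.18. Sirpa, the receptor of the do-not-eat-me signal CD47, went from 1144, 1302 and 1384 to 319.7, 348 and 383 CPM (-1.86 ± 0.09).

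Most glycolysis genes rose, and most genes of the TCA cycle and itaconate list, which also holds cytosolic enzymes, fell. Of 22 genes of glycolysis and glucose uptake, 19 rose and 3 fell (median 2.25). Pfkp, a phosphofructokinase, went from 37.1, 39.2 and 43.3 to 1820, 2435 and 2536 CPM (5.85 ± 0.14), the hexokinase Hk3 rose by 5.48 ± 0.13 and the transporter gene Slc2a6 by 5.95 ± 0.14, while the muscle form Pfkm fell (-1.88 ± 0.30). In the TCA cycle and itaconate list 6 of 25 rose and 15 fell (median -0.64). Apart from Irg1 the increases were under 2-fold, as for citrate synthase Cs (0.80 ± 0.08, -0.51 under library totals). Idh1, the cytosolic isocitrate dehydrogenase, fell from 327, 375 and 406 to 7.16, 9.82 and 10.9 CPM (-5.28 ± 0.13). Aco1, the cytosolic aconitase, had a log2 fold change of -2.21 ± 0.11 and Idh3g, of the mitochondrial isocitrate dehydrogenase, -1.54 ± 0.10. Nuclear-encoded respiratory chain genes split 14 up and 19 down of 41 (median -0.12), with cytochrome c, Cycs, at 2.91 ± 0.14 and the complex I subunit Ndufa8 at -1.19 ± 0.11. Of 12 mitochondrially encoded genes, 1 rose (mt-Co1, 0.62 ± 0.14, with overlapping groups and -0.63 under library totals) and 4 fell, mt-Nd3 the most (-1.75 ± 0.20).

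In nitric oxide and arginine metabolism some genes rose and others fell. The arginine transporter Slc7a2 went from 3.102, 3.905 and 5.18 to 660, 757 and 874 CPM (7.56 ± 0.15) and Ass1, which recycles citrulline to arginine, rose by 4.70 ± 0.14, while Asl, the enzyme of the next step of that recycling, fell (-1.13 ± 0.11, adjusted p = 1.2e-12 in edgeR's quasi-likelihood test). The whole list of 19 had 12 higher and 4 lower (median 0.58, -0.73 under library totals), among the former Cybb, the membrane subunit of the phagocyte oxidase (2.91 ± 0.12). Antioxidant genes split 12 up and 10 down of 24 (median 0.49, -0.80 under library totals). Sod2, the mitochondrial superoxide dismutase, went from 69.7, 79.8 and 87.1 to 6202, 6690 and 7476 CPM (6.43 ± 0.14) and thioredoxin Txn1 rose by 4.55 ± 0.13. The peroxide-removing enzymes Gpx1 and Cat fell, Gpx1 from 879, 962 and 1172 to 64.6, 94.2 and 110.5 CPM (-3.46 ± 0.20) and Cat at -2.46 ± 0.14. Prostaglandin and leukotriene genes had 7 of 20 higher and 10 lower (median -0.53). The PGE2 synthase Ptges rose with Ptgs2 (4.81 ± 0.18), and Hpgd, which inactivates prostaglandins, fell from 149.9, 164 and 169.7 to 2.53, 4.24 and 5.76 CPM (-5.24 ± 0.17), as did the leukotriene-pathway gene Alox5ap (-2.10 ± 0.12). Of 23 secreted proteases, inhibitors and matrix genes, 19 rose and 4 fell (median 4.77), with Procr, the protein C receptor, at 9.29 ± 0.25, Serpina3f at 10.03 ± 0.27 and Timp2, a metalloprotease inhibitor, at -2.10 ± 0.27.

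Becn1, the gene that carries the F121A change, stood at 23.9, 29.1 and 31.02 CPM at rest and 37.1, 42.4 and 49.4 CPM at 6 h, with no overlap (0.58 ± 0.09, adjusted p = 1.5e-07 in edgeR's quasi-likelihood test, -0.74 under library totals). Read counts do not show the F121A base itself, so the genotype labels were not checked by them. Of 14 genes of Beclin1 and its class III PI3-kinase partners, 8 rose and 5 fell (median 0.40). The largest increase was 5031414D18Rik, listed as Rubcnl (Pacer, which helps autophagosomes mature), from 3.83, 4.04 and 5.799 to 89.1, 94.2 and 103 CPM (4.43 ± 0.13). The largest decrease was its counterpart 1700021K19Rik, listed as Rubcn (Rubicon, which inhibits the complex and acts in LC3-associated phagocytosis), from 8.44, 12.2 and 15.7 to 1.84, 3.19 and 3.91 CPM (-1.99 ± 0.17). Sh3glb1 (Bif-1) rose by 2.36 ± 0.10, and the complex subunits Uvrag and Pik3r4 had log2 fold changes of -0.72 ± 0.14 and -0.78 ± 0.15.

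Among autophagy genes beyond this complex, more fell than rose. Of 40 genes of the autophagy machinery, 11 rose and 22 fell, 14 of them at least 2-fold (median -0.55). Atg7, the E1-like enzyme of both conjugation systems, fell from 25.03, 30.7 and 36.4 to 3.98, 4.96 and 7.82 CPM (-2.50 ± 0.15), and Wdr45 had a log2 fold change of -2.03 ± 0.16. Atg3, the E2-like enzyme for LC3, went the other way, from 49.4, 52.05 and 57.9 to 151, 179 and 188 CPM (1.73 ± 0.08), as did the fusion SNARE Snap29 (2.03 ± 0.16). Of 14 cargo receptors, 5 rose and 8 fell (median -1.02). Tax1bp1 and Optn, which recognise ubiquitinated cargo, rose by 3.94 ± 0.10 and 3.37 ± 0.12. The mitophagy receptors Bnip3 and Bnip3l went opposite ways (3.36 ± 0.15 and -1.81 ± 0.13). Of 40 lysosomal and TFEB family genes, 10 rose and 20 fell (median -0.23). Cathepsin C, Ctsc, which activates granule proteases, went from 359, 430.1 and 456 to 6354, 8043 and 9093 CPM (4.24 ± 0.11) and Mitf rose by 1.53 ± 0.11 (0.21 and not called under library totals). The cholesterol exporter of lysosomes Npc1 (-2.33 ± 0.10) and the glucuronidase Gusb (-1.92 ± 0.09) were lower. Of the 8 largest losses of level, 4 were satellite-like or related transcripts, and the others were Ctsd, Csf1r, Lipa and Ftl1. Ctsd, the aspartic protease cathepsin D, went from 12600, 15100 and 16330 to 3920, 4702 and 5128 CPM (-1.71 ± 0.11), Lipa, the acid lipase, from 2419, 2931 and 3158 to 358, 382 and 474 CPM (-2.86 ± 0.20), and Ftl1, ferritin light chain, from 4075, 4451 and 4842 to 2119, 2377 and 2462 CPM (-0.93 ± 0.11).

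Most macrophage identity genes that were called fell. Csf1r, the M-CSF receptor, fell from 5713, 6889 and 7518 to 1701, 2019 and 2187 CPM (-1.76 ± 0.10), and Cx3cr1, the fractalkine receptor, from 420, 463 and 553 to 2.15, 4.11 and 6.38 CPM (-6.85 ± 0.16). Of 29 identity and lineage factors, 8 rose and 16 fell (median -0.84). Mef2c fell (-3.88 ± 0.16), while Sfpi1, listed as Spi1 (PU.1), and the efferocytosis receptor Mertk rose by 2.05 ± 0.15 and 2.91 ± 0.13. Other genes among the 12 lowest fold changes were Tmem37 (98.4, 106 and 124 CPM at rest, 0.181, 0.371 and 1.03 CPM at 6 h, -7.69 ± 0.23), Sesn1, a sestrin that restrains mTORC1 (-6.97 ± 0.22), Fam105a (-6.44 ± 0.24) and Tmem86a (-6.03 ± 0.19). Dhrs3, a retinaldehyde reductase (-5.49 ± 0.16), Gpr183, an oxysterol receptor (-5.23 ± 0.21), Susd3 (-5.22 ± 0.18), Klc4, a kinesin light chain (-5.20 ± 0.21), and Slc43a2, an amino acid transporter (-5.13 ± 0.16), complete them, with Idh1 and Hpgd.

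Of 30 scavenger, phagocytic and Fc receptors, 19 rose and 10 fell (median 0.97, -0.34 under library totals). The activating Fc receptors Fcgr4 and Fcgr1 rose by 6.41 ± 0.15 and 3.36 ± 0.11, and the mycobacterial glycolipid receptor Clec4e (Mincle) went from 58.2, 64.5 and 76.2 to 5290, 6096 and 7452 CPM (6.57 ± 0.17). Stab1, a scavenger receptor of resting macrophages, fell from 258, 274 and 289 to 45.7, 50.2 and 58.7 CPM (-2.42 ± 0.09). In the complement list of 12, 7 rose and 3 fell (median 0.83), with C3 at 5.70 ± 0.16, the anaphylatoxin receptor C3ar1 at -3.00 ± 0.12 and C1qa at -0.85 ± 0.12. Of 15 alternative activation markers, 8 rose and 2 fell (median 0.90). Among those that rose were Ccl24 and Il4ra, the IL-4 receptor chain (5.05 ± 0.15), while Pparg, a factor that supports that state, fell from 10.96, 12.8 and 16.9 to 0.166, 0.193 and 1.23 CPM (-4.93 ± 0.31). Of 29 cholesterol genes, 8 rose and 16 fell (median -0.45). Ch25h, which makes the antiviral 25-hydroxycholesterol, went from 1.94, 2.98 and 3.84 to 762, 981 and 1099 CPM (8.35 ± 0.23), and the exporter Abca1 fell (-2.40 ± 0.19).

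Most cell cycle and ribosome biogenesis genes that were called fell, and most death and survival genes rose. Of 48 cell cycle genes, 32 fell and 11 rose (median -1.90). The replication helicase subunit Mcm6 fell from 36.99, 50.2 and 60.7 to 5.32, 9.02 and 10.8 CPM (-2.51 ± 0.15) and Cdk4, a G1 kinase, had a log2 fold change of -1.72 ± 0.11. Among those that rose were the cell cycle inhibitor Cdkn1a (p21), from 51.3, 64.2 and 74.6 to 3474, 4125 and 4598 CPM (6.00 ± 0.19), and Ccnd2, cyclin D2 (9.20 ± 0.22). Of 29 ribosome biogenesis genes, 17 fell and 3 rose (median -0.58), with Npm1 at -0.85 ± 0.10 and Noc4l at 2.25 ± 0.10. Of 40 cytosolic ribosomal proteins, 24 were not called and none changed 2-fold (median -0.01); Rps24 was at 0.89 ± 0.11 (-0.39 under library totals) and Rpl32 at -0.57 ± 0.12. The proteasome list had 25 of 31 higher and 3 lower (median 0.53, -0.67 under library totals), with Psma5 at 2.41 ± 0.11 and Psma1 at -0.51 ± 0.09. Of 28 ER chaperone and unfolded protein response genes, 14 rose and 6 fell (median 0.23), with the stress factor Atf4 at 1.76 ± 0.08, the chaperone Hspa5 (BiP) at 1.64 ± 0.11 and Pdia4 at -1.09 ± 0.11. Of 28 death and survival genes, 20 rose and 4 fell (median 1.75). Mlkl, the executioner of necroptosis, went from 4.09, 6.19 and 7.001 to 324, 368 and 402 CPM (5.93 ± 0.12), the death receptor Fas rose by 5.83 ± 0.14, Bmf, a killer of the BCL2 family, fell from 6.33, 13.6 and 18.03 to 0, 0.0897 and 0.362 CPM (-6.54 ± 0.41), and Bax had a log2 fold change of -0.65 ± 0.11.

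Markers of macrophages and of other cells were summed per library. The 9 macrophage markers summed to 48460 to 60600 CPM at rest and 46050 to 57280 at 6 h. The 8 B cell markers summed to 21.8 to 29.9 CPM at rest and 2.66 to 5.35 at 6 h, with Igkc at 0 in all 12 libraries. The 10 T cell markers summed to 56.3 to 63.6 CPM at rest and 120.6 to 139 at 6 h, with Cd3e, Trac, Trbc1 and Trbc2 at 0 in all 12. Sums for 12 dendritic cell markers were 57.8 to 74.04 CPM at rest and 747 to 918 at 6 h, and Cd209a was at 0. Monocyte markers (8) summed to 108 to 131 CPM at rest and 259 to 338 at 6 h, neutrophil markers (13) to 79.1 to 93.1 CPM at rest and 111 to 141 at 6 h, and endothelial markers (6) to 13.9 to 17.5 CPM at rest and 70.9 to 90.8 at 6 h. The 9 fibroblast markers summed to 0.779 to 5.97 CPM at rest and 5.49 to 10.6 at 6 h, and the 7 NK cell markers to at most 0.527 CPM in any library. Sums for 6 erythroid, 7 mast cell and 7 osteoclast markers were 0.176 to 1.11 CPM at rest and 0.179 to 1.33 at 6 h, 0.138 to 0.879 CPM at rest and 0.204 to 1.08 at 6 h and 22.3 to 29.1 CPM at rest and 26.1 to 36.2 at 6 h. The dendritic cell, monocyte, neutrophil, T cell and endothelial sums lay higher at 6 h in every library and the B cell sum lower. In each of the higher sums 1 gene made up most of the rise, by medians at rest and at 6 h: Bst2 (60.1 and 734.5 CPM), Vcan (3.31 and 204.5 CPM), Csf3r (40.9 and 88.5 CPM), Lck (0.134 and 99.2 CPM) and Kdr (2.83 and 61.9 CPM). Other members of these lists had lower medians at 6 h, among them Ccr2 (90.2 and 54.8 CPM), Mmp8 (20.9 and 13.3 CPM) and Il7r (57.2 and 31.2 CPM). As shares of a library's counts, replicate 5 at rest left out, macrophage markers went from 9.38 to 10.3% at rest to 3.44 to 3.67% at 6 h. Neutrophil markers went from 0.0134 to 0.0156% to 0.00701 to 0.00958%, and T cell markers from 0.00987 to 0.0110% to 0.00845 to 0.00960%, so that these sums run lower on that scale. Dendritic cell markers stayed higher at 6 h on it, at 0.0111 to 0.0129% at rest and 0.0522 to 0.0597% at 6 h. So did endothelial markers, at 0.00268 to 0.00314% and 0.00481 to 0.00636%. Monocyte markers overlapped, at 0.0193 to 0.0229% and 0.0176 to 0.0237%. The part of other cells in the response was not tested.

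Resting F121A libraries differed in how much of the induced transcripts they held, which bears on the fold changes of many induced genes, though not of all. Cxcl2, at 2.95 to 3.93 CPM over the 6 resting libraries, showed no such split. For 60 genes with a littermate log2 fold change above 7 and a littermate 6 h mean above 500 CPM, the resting level was expressed as a percentage of the 6 h mean of the same genotype. Because this rule used littermate values, it bounds the littermate resting percentages and not those of F121A. The lowest of the 60 stood at 0.065%, 0.097%, 0.065% and 0.066% in resting F121A replicates 1, 2, 5 and 6, against 0.006% and 0.000% in replicates 3 and 4 and 0.000 to 0.017% in the 6 littermate libraries. The lower quartile was 0.128 to 0.163% in those 4 libraries, 0.039% in replicates 3 and 4 and 0.024 to 0.064% in littermates. The separation was smaller at the median, with 0.187 to 0.307% in the 4 libraries, 0.129 and 0.143% in replicates 3 and 4 and 0.110 to 0.163% in littermates. At the upper quartile replicate 6 (0.464%) lay within the littermate range of 0.413 to 0.474%. Il12b, for one, stood at 14.8, 17.6, 15.6 and 14.9 CPM in replicates 1, 2, 5 and 6 at rest and at 0.714 and 1.55 CPM in replicates 3 and 4. The cause of this split among resting libraries was not tested. Left out together, a choice made after seeing the data, the 4 libraries changed the count of calls at 6 h against rest from 8568 to 8364, of which 3823 were higher and 4541 lower.

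**Figure D4:**
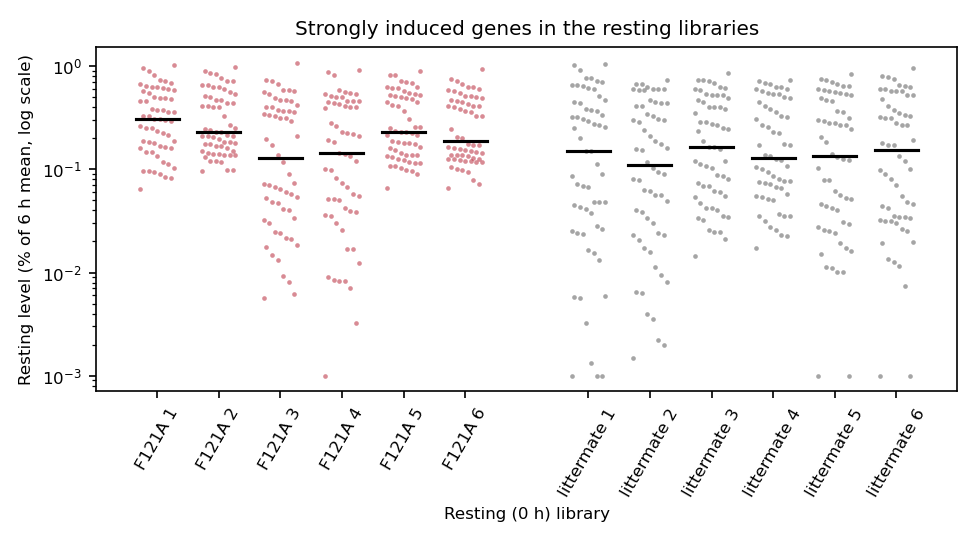
Resting level of 60 strongly induced genes as a percentage of their mean at 6 h (y axis, log scale; values under 0.001% are drawn at 0.001%) in each resting library of F121A and littermate macrophages; points are genes and lines medians. In F121A replicates 1, 2, 5 and 6 no point lies under 0.065%, whereas replicates 3 and 4 and the littermates reach 0.017% or lower.

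Set beside littermates, the F121A response was similar in direction for most genes. Of 4209 genes higher in F121A macrophages 3770 were also called higher in littermates and 9 lower, and of 4359 lower 3802 were also called lower and 5 higher. The difference of the responses, tested as an interaction in the same fit, was called for 380 genes (3.30%), 271 (2.36%) higher and 109 (0.948%) lower in F121A. Under library totals 177 were called, 72 higher and 105 lower, and a test for differences above 2-fold (edgeR's glmTreat) called 0, with 141 at an unadjusted p under 0.05. The description of littermate replicate 1 at 6 h gives 24 h where its title gives 6 h, and it was used by its title; without it 399 genes were called. Of the 271, 192 rose in both genotypes, 49 fell in both and 30 had opposite signs. At an unadjusted p under 0.05 there were 1796 genes, and 227 of the 380 kept their call when any 1 of the 24 libraries was left out. With the 4 resting libraries left out 103 were called, 76 higher and 27 lower, of which 100 were among the 380.

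**Figure D5:**
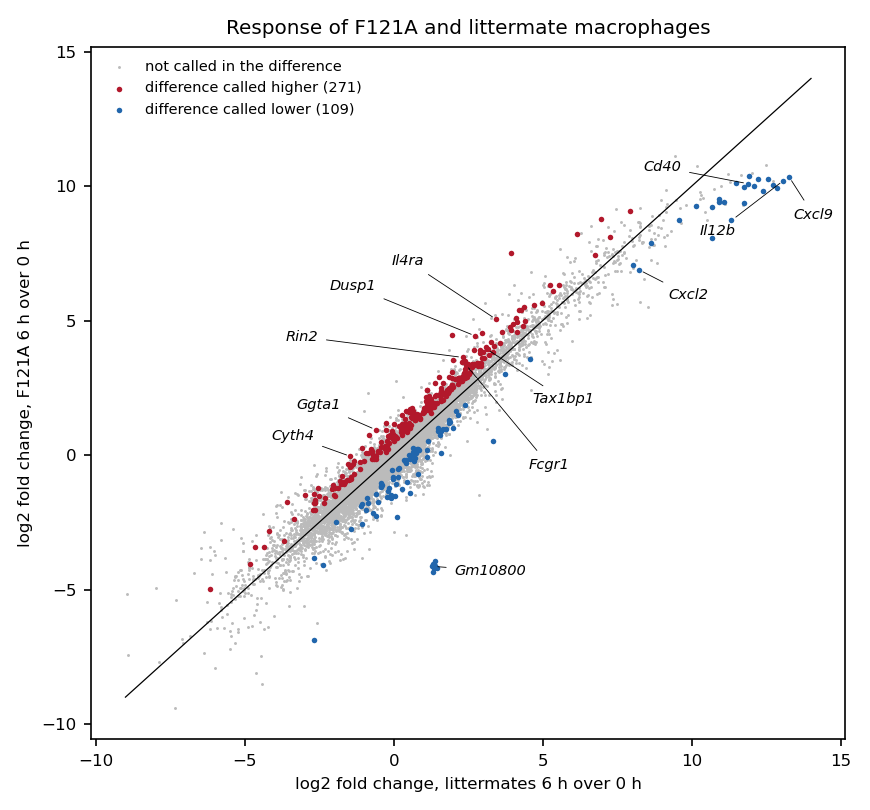
Log2 fold change at 6 h over 0 h in littermates (x axis) and F121A macrophages (y axis) for 11500 genes; each point is a gene, red and blue are genes called higher and lower in the difference, and the line marks equal responses. The satellite-like transcripts form a separate blue cluster near Gm10800.

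Genes with a larger increase in F121A macrophages had higher 6 h levels there. Of the 192 that rose in both genotypes, the 6 h median was higher in F121A in 191 and the resting median lower in 150. The call of a larger increase itself selects for such medians, so that these counts are not a result about the genes. Dusp1, which dephosphorylates p38 and JNK, reached 783, 866 and 1118 CPM at 6 h in F121A and 221, 333 and 396 CPM in littermates, from resting medians of 41.6 and 49.3 CPM (difference 1.70 ± 0.21, adjusted p = 1.0e-06 in edgeR's quasi-likelihood test). Il4ra reached 2238, 2428 and 2769 CPM against 561, 946 and 1012 CPM (difference 1.62 ± 0.18, adjusted p = 7.1e-08). Rin2, a RAB5 exchange factor, reached 459, 509 and 587 CPM against 194, 205 and 229 CPM (difference 1.32 ± 0.15, adjusted p = 1.1e-07). Lcn2, the siderophore-binding lipocalin, reached 33.99, 48.05 and 60.6 CPM against 25.3, 28.1 and 31.6 CPM (difference 1.58 ± 0.26, adjusted p = 1.6e-04). In each of these 4 the 6 h levels of F121A lay above all littermate levels. All 4 stayed called with the 4 resting libraries left out, at differences between 1.22 and 1.77.

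Ggta1 rose in F121A macrophages and fell in littermates. Ggta1, which makes the alpha-gal epitope, stood at 64.9, 74.1 and 78 CPM at rest and 122, 140.3 and 158 CPM at 6 h in F121A, and at 73.8, 80.9 and 94.9 and 47.6, 51.9 and 70.6 CPM in littermates. Its log2 fold changes were 0.94 ± 0.10 and -0.60 ± 0.10 (difference 1.54 ± 0.14, adjusted p = 8.9e-10 in edgeR's quasi-likelihood test), and in F121A it was -0.36 under library totals. Cyth4, an ARF exchange factor of leukocytes, was not called in F121A (-0.05 ± 0.10, adjusted p = 0.638) and fell in littermates (-1.45 ± 0.10), with 6 h levels of 254, 295 and 327 and 86.97, 127 and 148 CPM (difference 1.40 ± 0.14, adjusted p = 3.9e-09). In F121A it was called lower under library totals, and also without replicate 5 at rest. Rab3il1, a RAB exchange factor, fell less in F121A (-2.81 ± 0.13) than in littermates (-4.17 ± 0.15; difference 1.36 ± 0.20, adjusted p = 3.0e-05). Abtb2 completed the 8 highest differences among called genes whose mean log2 CPM was 3 or more (1.79 ± 0.53, adjusted p = 0.0488), but lost its call in 15 of 24 fits that left out 1 library.

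The cargo receptors Tax1bp1 and Optn were 2 of the genes with a larger increase in F121A. Tax1bp1 went from a resting median of 109 to 1402, 1685 and 1895 CPM, and from 123 to 884, 1067 and 1188 CPM in littermates (difference 0.82 ± 0.13, adjusted p = 1.2e-04 in edgeR's quasi-likelihood test). Optn reached 75.9, 86.4 and 87.9 CPM against 43.5, 50.03 and 56.2 CPM (difference 0.89 ± 0.16, adjusted p = 4.3e-04). Fcgr1 reached 838, 893 and 1022 CPM against 303, 415 and 498 CPM (0.94 ± 0.14, adjusted p = 5.5e-05). Irf7 (0.76 ± 0.18, adjusted p = 0.00743), Ikbke (0.62 ± 0.15, adjusted p = 0.00928) and Fosl2 (0.88 ± 0.20, adjusted p = 0.00775) were also higher in the difference. Without the 4 resting libraries Tax1bp1, Optn, Fcgr1 and Fosl2 stayed called, and Irf7 and Ikbke did not. Of the 40 machinery genes and the 14 Beclin1 partners 0 were called in the difference, where 3.30% of all genes were, so that these counts are not a result about the lists. Becn1 had a difference of 0.12 ± 0.12 (adjusted p = 0.691). Dusp2 had 6 h levels of 202, 419.9 and 518 CPM in F121A and 13.6, 16.8 and 32.8 CPM in littermates, and resting levels of 0.621, 1.098 and 1.49 and 0, 0.146 and 0.383 CPM; the difference of responses was 1.90 ± 0.93 and was not called (adjusted p = 0.315).

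Most genes with a smaller increase in F121A had higher resting levels there and lower 6 h levels. Of the 52 that rose in both genotypes, the resting median was higher in F121A in 47 and the 6 h median lower in 40. Here too the call selects for such medians, so that the counts are not a result about the genes. Cxcl9 had 6 h medians of 13840 CPM in F121A and 13480 CPM in littermates, and resting medians of 12.7 and 1.68 CPM (difference -2.95 ± 0.61, adjusted p = 0.00275 in edgeR's quasi-likelihood test). With the 4 resting libraries left out its difference was 1.02 (adjusted p = 0.438). Il12b was at -2.87 ± 0.61 with all libraries and at 0.27 without them (adjusted p = 0.00328 and 0.916), Ptgs2 at -2.30 ± 0.55 and 0.82 (adjusted p = 0.0103 and 0.588), and Il6 at -2.90 ± 0.52 (adjusted p = 4.6e-04) and -0.02, which was not called. Gbp2 (-1.36 ± 0.29) and Cd40 (-1.78 ± 0.34) came to -0.13 and -0.30, and Il1a (-2.58 ± 0.43) to -1.39, none of them called without the 4 libraries (adjusted p = 0.880, 0.748 and 0.251). At 6 h, Il12b stood at 10270, 12700 and 14500 CPM in F121A and 18540, 19600 and 23160 CPM in littermates. Il6 was at 1537, 1755 and 2053 against 2623, 2814 and 3836 CPM. Il1a was at 816, 971 and 1145 against 1233, 1456 and 1713 CPM. In Il12b, Il6 and Il1a the 6 h groups did not overlap, whereas in Cxcl9, Gbp2 and Cd40 they did.

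Some differences below 0 stayed called without the 4 resting libraries. Cxcl2 reached 345, 425 and 484 CPM in F121A and 701, 840.2 and 940.3 CPM in littermates, without overlap (difference -1.36 ± 0.17, adjusted p = 1.1e-06 in edgeR's quasi-likelihood test, and -1.35 without the 4 libraries). Sc4mol (Msmo1), a cholesterol synthesis enzyme, went from 33.7, 35.1 and 39.4 to 14.6, 16.5 and 19.9 CPM in F121A and from 28.8, 38.8 and 43 to 24.7, 28.4 and 32.3 CPM in littermates (difference -0.71 ± 0.15, adjusted p = 0.00261). This was a deeper fall in F121A, with log2 fold changes of -1.10 in F121A and -0.39 in littermates. Ifi47 had a difference of -0.76 ± 0.17 (adjusted p = 0.00446) with 6 h medians of 4959 and 4901 CPM and resting medians of 22.9 and 12.3 CPM.

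Of the 8 satellite-like transcripts 7 were called lower in the difference, with near-identical copies that make single values uncertain. Gm10800 stood at 429.5, 1461 and 186000 CPM at rest, with a log2 fold change of -4.14 ± 0.89 in F121A. Without replicate 5 at rest this was 0.55 (adjusted p = 0.129 in edgeR's quasi-likelihood test). Its difference from littermates went from -5.48 to -0.69 without that library (adjusted p = 0.524) and to 0.43 without the 4 (adjusted p = 0.818).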

How the data were processed

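RNA of the 36 knock-in libraries was read from 1 table of raw counts per gene that the authors deposited. Reads were aligned with TopHat to mm10 and counted with HTSeq, per the submitters' processing notes, with versions not given in the sources used here. The counts were used as deposited, and no library was left out. Each of the 6 groups of 6 (F121A and littermate, 0, 6 and 24 h) entered 1 edgeR quasi-likelihood fit (edgeR 4.0.16, R 4.3.3) with TMM factors and the default filter of filterByExpr, which left 11500 of 34573 genes. The contrasts were F121A 6 h minus 0 h and its difference from the same contrast in littermates, with Benjamini-Hochberg adjusted p under 0.05 as a call. The standard error is the log2 fold change divided by the square root of F. The procedure was tested on simulated data. DESeq2 1.42.0, other scalings, filters, a 2-fold test, a replicate block and left-out libraries were tried as alternatives.

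The text names the 12 highest and 12 lowest fold changes among called genes whose mean log2 CPM was 3 or more and whose groups did not overlap, the 8 largest gains and losses of mean CPM, up to 3 rising and 3 falling members of each function list by smallest p, Becn1, and the 8 highest and lowest differences among called genes of the same minimum mean. From these the report takes those that carry each paragraph, and says where a gene was added. The members, lists and tests were chosen with earlier results of these data known. Totals of 4838706 to 8856029 counts per library carry no molecular identifiers, so that bounds cover counting error only. RefSeq promoters came from GRCm38.p6 and were matched by symbol, with a synonym used only where 1 gene carried it. Some genes that this rule takes in are not reported here.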

Additional observations from a re-analysis of the deposited data

Results flagged for a closer look

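In 18 of 332 groups of 6 libraries (5.42%) 1 library lay apart from the other 5 by Dixon's test at its 95% critical value, where chance gives about 1 in 20. Resting replicate 5 accounted for 7 of the 18. It was high in Gm10800 (1.86e+05 CPM), Lcn2 (3.69 CPM) and mt-Nd3 (67.48 CPM), and low in Hk3 (46.92 CPM), Sfpi1 (277.3 CPM), Slc43a2 (90.5 CPM) and Wdr45 (8.259 CPM). The other resting libraries that lay apart were high: replicate 1 in Ciita (7.109 CPM), replicate 3 in C1qa (482.7 CPM), and replicate 4 in Noc4l (11.28 CPM) and Rab3il1 (81.78 CPM). At 6 h, replicate 1 was high in Cxcr4 (0.8178 CPM) and Mertk (275.4 CPM), replicate 2 in Fas (274.5 CPM), replicate 3 in Ccl24 (84.47 CPM) and replicate 6 in Cycs (68.26 CPM). Replicate 5 at 6 h was low in Idh1 (7.156 CPM) and Rps24 (131.3 CPM).

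The response of 34 named genes differed between F121A and littermate macrophages in the interaction test, 17 higher and 17 lower. The 17 log2 differences above 0 were Abtb2 (1.79), Actb (0.53), Cyth4 (1.40), Dusp1 (1.70), Fcgr1 (0.94), Fosl2 (0.88), Ggta1 (1.54), Ikbke (0.62), Il4ra (1.62), Irf7 (0.76), Lcn2 (1.58), Optn (0.89), Rab3il1 (1.36), Rin2 (1.32), Stat3 (0.46), Tax1bp1 (0.82), Tnfsf9 (0.69). The 17 below 0 were Cd40 (-1.78), Cxcl10 (-0.83), Cxcl2 (-1.36), Cxcl9 (-2.95), Gbp2 (-1.36), Gm10800 (-5.48), Ifi205 (-1.35), Ifi47 (-0.76), Il12b (-2.87), Il1a (-2.58), Il6 (-2.90), Irg1 (-0.86), Nos2 (-1.96), Ptgs2 (-2.30), Sc4mol (-0.71), Serpina3f (-2.71), Serpina3g (-1.55). When each of the 24 libraries was left out in turn, 25 of the 34 kept their call every time. The 9 that lost it at least once were Abtb2, Actb, Gm10800, Ifi205, Irg1, Nos2, Serpina3g, Stat3 and Tnfsf9.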

How the results depend on the processing

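For 6 h against rest, 8568 genes were called (4209 higher, 4359 lower), and for the difference from littermates 380 (271 and 109). DESeq2 called 8698 and 527. Library totals gave 1759 higher and 8482 lower, and for the difference 177, of which 72 were higher. They turned Cs (-0.51), mt-Co1 (-0.63), Becn1 (-0.74), Rps24 (-0.39) and Ggta1 (-0.36) below 0. With no filter, 219 genes were called lower in the difference. Tested for changes above 2-fold with edgeR's glmTreat, 4313 genes were called (2286 higher, 2027 lower) and in the difference 0 (0 higher, 0 lower), with 141 at an unadjusted p under 0.05. Without resting replicates 1, 2, 5 and 6, chosen after seeing the data, the difference had 103 calls (76 higher, 27 lower). There it turned above 0 for Cxcl9 (1.02), Nos2 (0.88), Ptgs2 (0.82), Serpina3g (0.69), Gm10800 (0.43), Ifi205 (0.42), Il12b (0.27) and Irg1 (0.08), and the 6 h change of Gm10800 was 1.66. The last case has fewer samples, and otherwise the cause was not tested.

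Leaving out 1 library gave 8436 to 8839 calls (4020 to 4210 higher, 4280 to 4819 lower), and 310 to 407 in the difference (211 to 291 higher, 92 to 119 lower). Gm10800 ranged from -4.40 to 0.55, the latter without resting replicate 5. With the replicate number as a block, 8519 genes were called (4199 higher, 4320 lower) and 355 in the difference (265 and 90). The block ended the call of Gm10800 (-0.20, adjusted p = 0.832) and of 6 of the 34 named differences: Abtb2, Gm10800 (-1.44), Irg1, Nos2, Serpina3g and Tnfsf9. Same-numbered F121A libraries had correlations of -0.1432 to 0.09445, and 2 of 6 correlated best with their own number, so that the numbers were not taken as pairing. Depth limits genes near 0 at rest, where 3 counts over the group equal 0.0389 CPM.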
